A study of Mus musculus with 19 samples.

Results

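Hippocampal microglia of CK-p25 mice with PU.1 targeted for deletion were compared with microglia of CK control mice. The comparison used 6 of the 19 samples of the series, 3 RNA sequencing libraries of each group, all from 1 sequencing run. Members were chosen by their labels and not by any measured value. Of 23951 genes in the deposited table, 10822 had a mean of at least 1 FPKM over the 6 libraries and were tested. FPKM is a fragment count scaled for transcript length and library size.

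CK-p25 mice carry p25, an activator of the kinase Cdk5, under control of the CaMKII promoter in forebrain neurons, and these neurons degenerate once p25 is induced. CK littermates lack the p25 transgene. PU.1, encoded by Spi1, is a transcription factor of the ETS family that establishes and maintains myeloid cells, microglia among them. Near dying neurons or plaques, microglia lower genes of their resting state, such as P2ry12 and Tmem119, and raise lysosomal, lipid and antigen presentation genes, a profile known as disease-associated.

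The group called PU.1 cKO here had the genotype Cx3cr1CreER+/-; CK-p25 with PU.1 fl/fl. The CK control group had Cx3cr1CreER+/-; CK. Both groups therefore carried 1 tamoxifen-inducible Cre allele driven by Cx3cr1, and both received tamoxifen at 50 mg/kg on 5 days when p25 was induced. Tissue was taken 6 weeks later, at an age of 4.5 months. Another 3 libraries, of CK-p25 mice with intact PU.1 and otherwise the same treatment, are used only where they are named. RNA came from cells sorted for CD11b and CD45, and full-length cDNA was amplified with a low-input kit. The groups differ both in p25 and in PU.1 genotype, so the effects of these 2 changes cannot be told apart in this comparison. Each difference between PU.1 cKO and CK below therefore includes the difference in p25. Cx3cr1 is also active in other mononuclear phagocytes, so the Cre is not restricted to microglia. Whether the 3 libraries of a group stem from different animals is not in the labels, so a p-value here speaks only of the scatter among these libraries, part of which may be technical. In sorted bulk cells, fewer cells of a type and less RNA per cell cannot be told apart.

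All 10 microglial and leukocyte markers used to check the label were present in all 6 libraries. Their lowest value was Sall1 at 41.1 FPKM, in PU.1 cKO replicate 2. Read depth is unknown. Summed FPKM, which is not a depth, ran from 545930 to 601177 in PU.1 cKO and from 475007 to 500482 in CK. The groups thus did not overlap in this sum, and values were not rescaled in the main fit. In the 6 libraries, 31.9% to 36.4% of genes were listed at 0. The correlation of log2 values across tested genes was 0.928 to 0.951 between libraries of 1 group and 0.852 to 0.871 between groups. The first principal component, with 54.3% of the variance, separated the groups. Among the tested genes, 83 had both a value of 0 and a value of 100 FPKM or more among the 6 libraries, and library values replace a fold for those named below.

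Spi1, the targeted gene, was moderately lower. It measured 165, 152 and 224 FPKM in the 3 PU.1 cKO libraries against 256, 229.7 and 251 FPKM in CK, so the groups did not overlap. The log2 difference was -0.46 ± 0.15 (SE, n = 3 against 3; limma with Benjamini-Hochberg adjustment, as in all tests below, adjusted p = 0.0464). The call was lost without any 1 of the CK libraries or without PU.1 cKO replicate 1 or 2, with adjusted p between 0.0789 and 0.118, and it was kept without PU.1 cKO replicate 3, with adjusted p = 0.00338. PU.1 cKO replicate 3 held the most Spi1 of the 3. The labels do not say which exons are floxed, and a value for the whole gene also counts fragments outside them.

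Of the 10822 tested genes, 5015 (46.3%) differed between the groups. At an adjusted p under 0.05, 2619 genes were higher in PU.1 cKO, which is 24.2% of the tested genes, and 2396 were lower, which is 22.1%. Over 2-fold, 761 genes were higher (7.03%) and 341 were lower (3.15%). By more than 3 on the log2 scale, 96 called genes rose and 16 fell, the latter with Ctsd, whose zeros are described below. The 3 libraries of a group lay wholly above or below those of the other in 6370 genes (58.9%). Of the 5015 called genes, 8 had libraries that overlapped, so a lack of overlap adds little once a gene is called. These percentages are the background for every list below, and the median log2 difference over all tested genes was -0.00759. Differences are on the scale of log2(FPKM + 1), on which genes of low level show less than their full change.

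**Figure D1:**
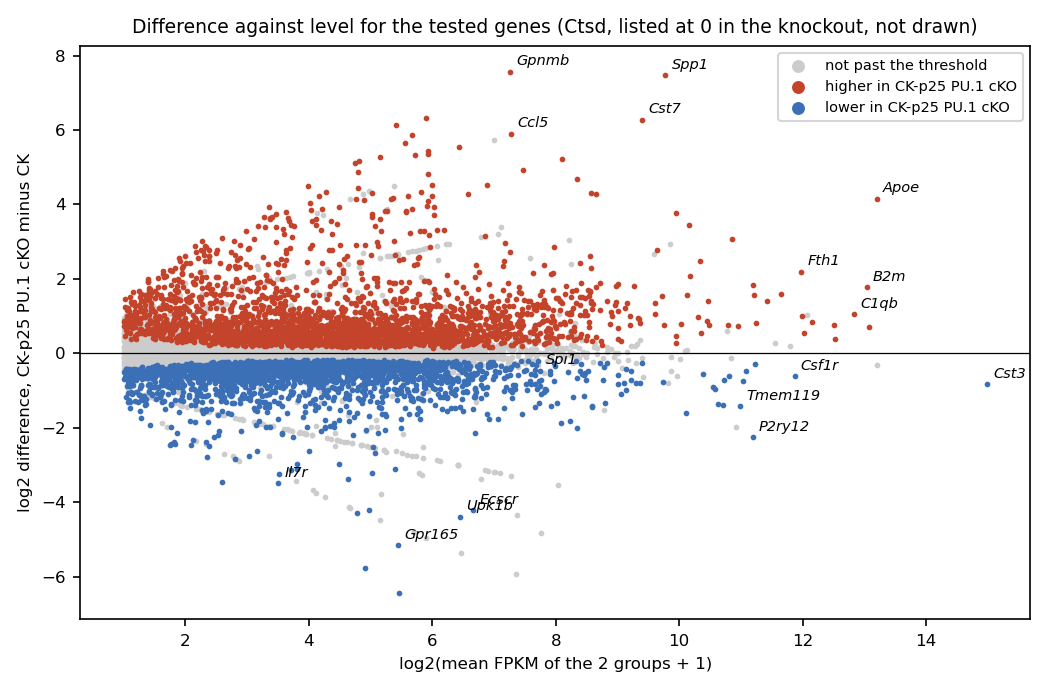
Each point is a tested gene, with the log2 of its mean FPKM over both groups plus 1 on the x axis. The y axis gives the log2 difference, CK-p25 PU.1 cKO minus CK. Red (higher) and blue (lower) points passed an adjusted p of 0.05, and Ctsd is not drawn. The 761 rises over 2-fold outnumber the 341 falls, and the rises reach 7.57 for Gpnmb.

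Gpnmb and Spp1 were among the 14 largest rises, chosen among called genes without overlap between groups, with microRNA, snoRNA and predicted gene models left out. Gpnmb, a membrane glycoprotein of lysosome-rich phagocytes, measured 369.7, 431 and 111 FPKM in the PU.1 cKO libraries and 0.577, 0.36 and 0.215 FPKM in CK, a log2 difference of 7.57 ± 0.51 (SE, adjusted p = 0.000198). Spp1, which encodes the secreted protein osteopontin, measured 2222, 1843 and 1164 FPKM against 4.75, 8.54 and 14.4 FPKM and rose by 7.48 ± 0.40 (SE). Cst7, which encodes cystatin F, an inhibitor of lysosomal cysteine proteases, measured 1753, 1407 and 836 FPKM against 13.8, 16.1 and 16.4 FPKM and rose by 6.28 ± 0.27 (SE). In these 3 genes every PU.1 cKO library was far above every CK library, and PU.1 cKO replicate 3 was the lowest of its group.

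The next largest rises included chemokines, complement and lipid genes. Ccl5, a chemokine that attracts T cells and monocytes, measured 349, 208 and 356 FPKM in PU.1 cKO and 1.97, 6.53 and 4.40 FPKM in CK. Cxcl13, a chemokine for B cells, measured 145, 91.7 and 38.6 FPKM against 0.289, 1.40 and 0.322 FPKM. C3, the central complement component, measured 139, 119.8 and 38.2 FPKM against 0.402, 0.706 and 0.428 FPKM. The log2 rises of these 3 were 5.91, 5.67 and 5.86, with no overlap between groups. Fabp5, a fatty acid-binding protein, measured 163, 182 and 159 FPKM against 1.79, 4.05 and 2.40 FPKM and rose by 5.54 ± 0.21 (SE). Ch25h, which hydroxylates cholesterol, measured 153, 92.5 and 62.2 FPKM against 0.924, 1.86 and 1.57 FPKM and rose by 5.32 ± 0.33 (SE). Apoc4, an apolipoprotein gene next to Apoe, measured 187, 142 and 21.3 FPKM against 0.147, 0 and 0 FPKM, and no fold is given because it is listed at 0 in 2 CK libraries.

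Enzymes of the extracellular matrix stood beside them. Hpse, the heparan sulfate-cleaving enzyme heparanase, measured 79.4, 81.4 and 44.4 FPKM against 0.513, 0.708 and 0.947 FPKM and rose by 5.29 ± 0.25 (SE). Lox, which cross-links collagen and elastin, measured 69.3, 63.1 and 29.01 FPKM against 0.906, 0.349 and 0.156 FPKM and rose by 5.16 ± 0.36 (SE). Cox6a2, an isoform of a cytochrome c oxidase subunit best known from muscle, measured 139.5, 122 and 91.1 FPKM against 2.13, 1.42 and 2.03 FPKM and rose by 5.36 ± 0.18 (SE). These 3 had no overlap between groups. H2-Q7, a nonclassical class I gene, measured 133, 93.8 and 127 FPKM against 0.874, 2.78 and 1.81 FPKM, but near-identical copies lie beside it and reads may have been split among them. Rps27, a ribosomal protein gene, measured 391, 394 and 661 FPKM against 1.90, 188 and 2.56 FPKM. Its difference of 5.23 ± 1.59 (SE, adjusted p = 0.0379) had 1 CK library far above the other 2, and the call was lost without any 1 library other than CK replicate 2, with adjusted p from 0.0788 to 0.11.

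Chosen in the same way, with the same gene models left out, Gpr165 was among the 14 largest falls. Gpr165, an orphan G protein-coupled receptor, measured 0.57, 1.07 and 3.10 FPKM in PU.1 cKO and 84.8, 89.1 and 77.1 FPKM in CK, and fell by 5.16 on the log2 scale (SE 0.34, adjusted p = 0.000189). Upk1b, a tetraspanin of the uroplakin family, measured 3.23, 4.87 and 18.5 FPKM against 181, 139 and 173 FPKM and fell by 4.39. Ecscr, a small adhesion-related membrane protein, measured 6.21, 5.92 and 20.8 FPKM against 196, 184 and 191 FPKM and fell by 4.22. In each of the 3 genes the highest PU.1 cKO library was replicate 3, and it was still under every CK library.

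Other large falls chosen in the same way follow. Tmem204, a junction-associated membrane protein, measured 0.656, 1.62 and 3.20 FPKM against 44.03, 51.2 and 58.1 FPKM. Gp9, a platelet glycoprotein gene also used in microglial signatures, measured 1.96, 1.40 and 3.68 FPKM against 62.1, 50.02 and 63.8 FPKM. Siglece, an inhibitory receptor for sialic acid, measured 4.55, 5.46 and 16.7 FPKM against 70.5, 75.3 and 74.8 FPKM. The log2 differences were -4.30, -4.20 and -3.12. Kcnk12, a pore-domain potassium channel, measured 0.798, 0.66 and 2.47 FPKM against 20.05, 18.5 and 19.9 FPKM, a log2 difference of -3.23. Klhdc8b, a kelch-domain protein, measured 3.48, 4.16 and 4.49 FPKM against 47.9, 33.97 and 34.5 FPKM, a log2 difference of -2.97. Slco4a1, Il7r, Khdrbs3 and Bank1 fell by 3.37, 3.48, 3.12 and 3.12, from CK levels between 15.2 and 52.8 FPKM to at most 4.55 FPKM in PU.1 cKO. Angptl7, an angiopoietin-like secreted protein, measured 0.612, 0.891 and 3.15 FPKM against 54.4, 10.97 and 8.27 FPKM, and its call was lost without PU.1 cKO replicate 1 (adjusted p = 0.0555) or replicate 2 (adjusted p = 0.0592).

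Ctsd, the gene of the lysosomal protease cathepsin D, is listed at 0 in all 3 PU.1 cKO libraries and at 14566, 13006 and 12960.3 FPKM in CK. In the 3 CK-p25 libraries it is listed at 0, 0 and 30706 FPKM. A value of 0 for so abundant a gene can be a failed estimate of the quantification, so no fold is given.

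**Figure D2:**
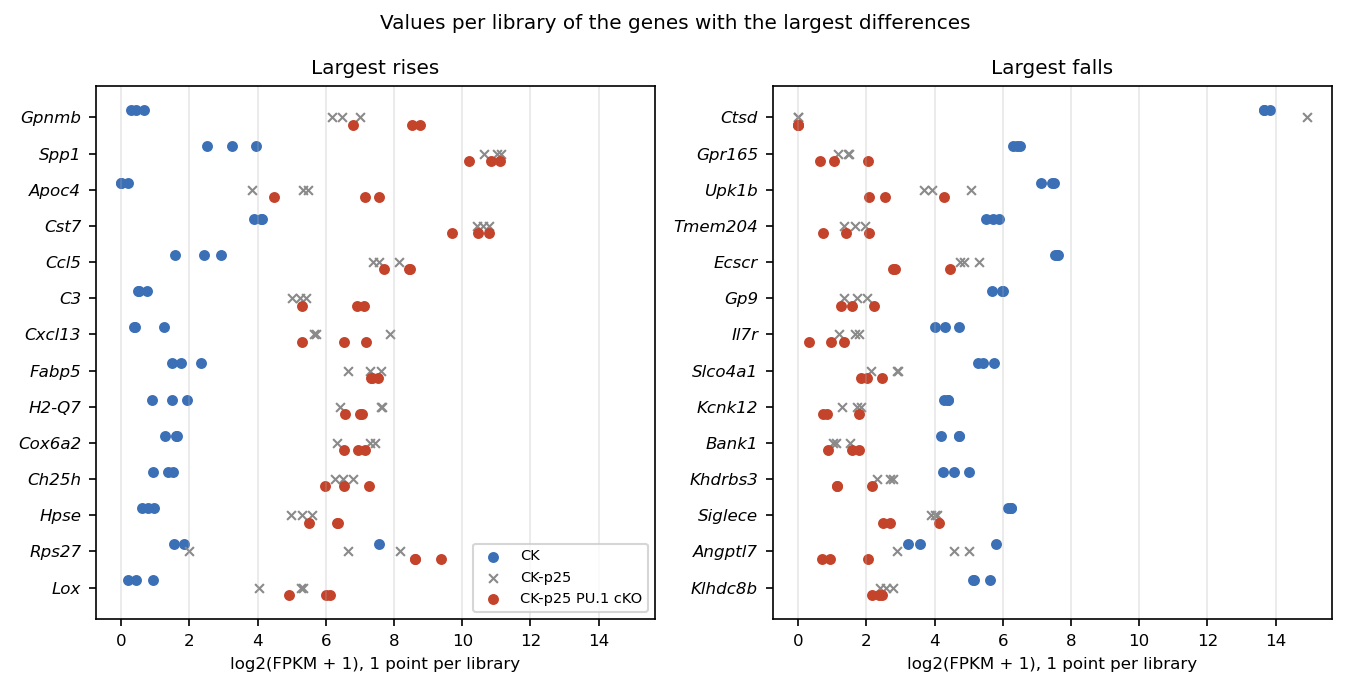
Each point is 1 library, with log2(FPKM + 1) on the x axis, for the 14 largest rises and the 14 largest falls; CK-p25 libraries with intact PU.1 are drawn as crosses. Red points are PU.1 cKO and blue points are CK. They are apart in every gene because only genes without overlap were chosen. Ctsd is drawn at its listed zeros.

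Among abundant genes, the 6 largest gains in FPKM were of Apoe, B2m, Fth1, C1qb, Ctss and Ftl1. Apoe, the main lipid carrier of the brain, measured 17906, 20361 and 14563 FPKM in PU.1 cKO and 369, 1509 and 1664 FPKM in CK and rose by 4.16 ± 0.58 (SE). CK replicate 1 was lowest for Apoe, and it also held fewest macrophage transcripts, described below. Fth1, the ferritin heavy chain, measured 7117, 6243 and 6470.5 FPKM against 1270.4, 1477 and 1587 FPKM and rose by 2.20 ± 0.11 (SE). Ftl1, the light chain, measured 4956, 4627 and 4960.3 FPKM against 1542, 1570.1 and 1693 FPKM and rose by 1.60 ± 0.08 (SE). Their groups did not overlap. Ctss, the protease cathepsin S, rose by 0.70, a call lost without CK replicate 3 (adjusted p = 0.051), when low genes were kept in the fit (adjusted p = 0.382) and under quantile normalization, where the difference was 0 (adjusted p = 1). The largest losses besides Ctsd were of Cst3, P2ry12, Tmem119, Csf1r and Gpr34. Cst3, the secreted protease inhibitor cystatin C, was the most abundant gene and measured 25476, 22549.5 and 22089 FPKM against 45973, 37067 and 40993 FPKM, a log2 difference of -0.82 ± 0.14 (SE, adjusted p = 0.00495). This call and that of Csf1r were lost when low genes were kept in the fit, with adjusted p of 0.75 and 0.139, and quantile normalization, which fixes the top rank, gave a Cst3 difference of 0.

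PU.1 cKO replicate 3 lay nearest to CK more often than its group partners among the larger falls. It was the nearest of the 3 in 228 of the 341 falls over 2-fold (66.9%) and in 12 of the 13 named falls other than Ctsd. Among the 761 rises over 2-fold, replicate 2 was the nearest in 343 (45.1%), replicate 3 in 327 (43.0%) and replicate 1 in 91. The median log2 difference of replicate 3 from the CK mean over the 341 falls was -1.18, against -1.36 and -1.38 for replicates 1 and 2. The same library held the most Spi1 and the highest summed neuronal markers, 66.9 FPKM over 15 listed genes against 4.62 and 29.3 FPKM in replicates 1 and 2. The part of these in its position was not tested. Without it, 2469 genes were higher and 2117 lower.

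**Figure D3:**
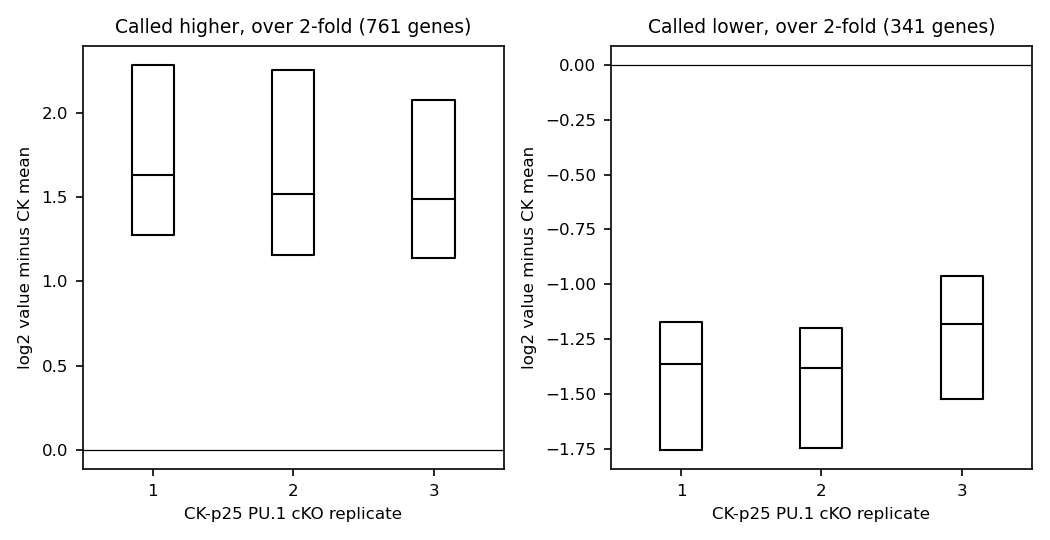
For each PU.1 cKO replicate, boxes give the quartiles and the median of log2(FPKM + 1) minus the CK mean over the 761 genes called higher by over 2-fold (left) and the 341 called lower by over 2-fold (right). These genes were chosen from the same libraries, so only the difference between boxes is informative: replicate 3 has a median of -1.18 among the falls against -1.36 and -1.38.

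Genes of disease-associated microglia rose almost as a whole list. Of 28 tested members, 27 rose and Ctsd, listed at 0, was lower, and the median difference was 2.62. Clec7a, a C-type lectin receptor for fungal glucans, measured 684, 588 and 594 FPKM in PU.1 cKO and 25.6, 24.7 and 19.6 FPKM in CK and rose by 4.69 ± 0.12 (SE). Csf1, a growth factor of macrophages, measured 196, 181 and 167 FPKM against 9.15, 8.01 and 7.98 FPKM and rose by 4.28 ± 0.08 (SE, adjusted p = 9.98e-06). Lgals3, which encodes galectin-3, measured 121, 133 and 107 FPKM against 4.47, 6.56 and 5.54 FPKM and rose by 4.23 ± 0.14 (SE). All 28 members separated the groups without overlap, as did 58.9% of all tested genes, and Ctsd did so through its listed zeros. The smallest rise was of Trem2, the lipid-sensing receptor required for this profile, at 2098, 1765 and 1577 FPKM against 1177, 968 and 1022 FPKM and 0.77 ± 0.13 (SE), followed by Cd68, at 0.86, and the Trem2 adaptor Tyrobp, at 1.01. These 3 were chosen after their values were seen.

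Homeostatic genes fell in the opposite sense. Of 24 tested members, 20 fell, none rose, and the median was -0.95. P2ry12, the ADP receptor that directs microglial processes, measured 848, 783 and 791 FPKM against 4301, 3673 and 3637 FPKM, a 4.79-fold lower mean (log2 difference -2.26 ± 0.09, SE). P2ry13, a related ADP receptor, measured 564, 518 and 560.1 FPKM against 1776, 1607 and 1590.2 FPKM and fell by 1.60. Tmem119, a membrane protein that marks microglia, measured 1296, 1072 and 974 FPKM against 2962, 2876 and 3010.1 FPKM and fell by 1.41. All 3 separated the groups fully. Gpr34, a receptor for lysophosphatidylserine, and Selplg, the ligand of P-selectin, fell by 1.39 and 1.37.

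Among the 4 homeostatic members that did not pass was Cx3cr1, named after its values were seen. Cx3cr1, the fractalkine receptor whose locus drives the Cre, measured 666, 576 and 1187 FPKM against 1249, 1163 and 1141 FPKM (adjusted p = 0.102). Replicate 3 of PU.1 cKO lay within the CK range and the other 2 below it.

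Interferon-stimulated genes rose together. Of 30 tested members, 29 rose, none fell, and the median was 3.01. The list's summed level was 3256, 2558 and 3055 FPKM in PU.1 cKO and 221, 285 and 351 FPKM in CK. Type I interferon acts on promoters through interferon-stimulated response elements. To show what such an element looks like in the genes that moved, stretches from 6 promoters are printed, from RefSeq (GRCm38.p6), 5′ to 3′ along the gene's strand and ending upstream of the start site. They belong to the members with the largest rises among those with a match wholly before the start site. Capitals mark matches of GAAANNGAA, a core of the element, searched on both strands, so that a match on the other strand is printed as the reverse complement, and matches may overlap.
Ifit3, chr19:34583359-34583450, plus strand: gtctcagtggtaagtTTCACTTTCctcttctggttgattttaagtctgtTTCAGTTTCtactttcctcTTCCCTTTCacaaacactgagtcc
Rsad2, chr12:26456548-26456586, minus strand: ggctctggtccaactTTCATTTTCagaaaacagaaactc
Oas1a, chr5:120907526-120907560, minus strand: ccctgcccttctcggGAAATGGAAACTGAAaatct
Ifit1, chr19:34640765-34640828, plus strand: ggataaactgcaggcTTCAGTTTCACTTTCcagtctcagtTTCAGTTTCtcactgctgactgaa
Oas3, chr5:120777705-120777749, minus strand: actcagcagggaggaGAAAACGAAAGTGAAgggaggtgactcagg
Isg15, chr4:156200861-156200911, minus strand: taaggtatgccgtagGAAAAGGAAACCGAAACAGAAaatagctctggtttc

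In Oas3, Oas1a and Isg15 the matches overlap into runs on the gene's own strand, and in Ifit1, Ifit3 and Rsad2 they lie on the opposite strand. Ifit3, which restrains translation of viral RNA with Ifit1, measured 63.9, 47.1 and 66.6 FPKM in PU.1 cKO and 2.80, 2.66 and 5.21 FPKM in CK and rose by 3.75 ± 0.24 (SE). Oas1a, a sensor of double-stranded RNA, measured 37.6, 31.5 and 40.97 FPKM against 1.89, 2.18 and 2.56 FPKM and rose by 3.55 ± 0.12 (SE). Isg15, a ubiquitin-like modifier, measured 81.5, 57.4 and 79.5 FPKM against 6.68, 8.19 and 9.31 FPKM and rose by 3.02 ± 0.17 (SE). The groups were far apart in all 3, and within PU.1 cKO replicate 2 was the lowest each time. Ifit1, Oas3 and Rsad2, which encodes the antiviral enzyme viperin, rose by 3.43, 3.30 and 3.64.

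Of the interferon list, 20 members had a promoter of 300 bases in RefSeq, 250 before and 50 after the start site, and 13 of them (65.0%) held the core. Of these 13, 12 rose, and 10 had a match wholly before the start. The core stood in 7.42% of the 8104 tested genes with a promoter, 9.16% of those called higher, 6.43% of those called lower and 8.57% of all 27025 promoters. None of 16 homeostatic promoters held it, but 16 are too few to set apart from a share of 7.42%. Other lists held it in 3 of 14 class I promoters (21.4%) and 4 of 23 disease-associated ones (17.4%). The lysosomal list had 5 of 35 (14.3%), the textbook PU.1 targets 3 of 15 (20.0%) and the cytokine and NF-kB list 1 of 12 (8.33%). The median log2 difference was 3.02 for the 13 interferon list members with a match and 3.83 for the 7 without one in this window. The PU.1 core GAGGAAGT, searched the same way, stood in 3.47% of tested genes, 3.78% of those called higher and 3.74% of those called lower. It stood in 0 of 15 promoters of the textbook PU.1 targets described below, so these shares cannot show which genes PU.1 controls. A match is a description of the letters and not a site of binding.

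Oasl2 and Ifit2 also separated the groups. Oasl2, an OAS-like antiviral protein, measured 79.9, 70.3 and 74.6 FPKM against 2.52, 3.14 and 4.24 FPKM and rose by 4.16 ± 0.15 (SE). Ifit2 measured 95.3, 69.8 and 98.1 FPKM against 4.48, 5.00 and 6.14 FPKM and rose by 3.83 ± 0.16 (SE). No library overlapped. Irf7, the factor that amplifies interferon production, rose by 4.33, the largest rise on the list, and was named after its value was seen. Ifi44 did not pass, at 8.84, 13.02 and 13.9 FPKM against 0.0853, 11.5 and 0.152 FPKM, with CK replicate 2 inside the range of PU.1 cKO. Without that library all 30 members rose.

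Class I antigen presentation rose at several steps. Of 17 tested members, 14 rose, none fell, and the median was 0.98, while under quantile normalization 12 rose and 2 fell. H2-K1 and H2-D1, the classical class I heavy chains, measured 2328, 1791 and 2136 FPKM (H2-K1) and 3482, 2912 and 3541 FPKM (H2-D1) in the PU.1 cKO libraries, against 169.6, 203 and 200.3 FPKM and 317, 448 and 419 FPKM in CK. They rose by 3.44 and 3.08, though reads of class I genes may be split among near-identical copies. B2m, their light chain, measured 14367, 11447 and 13181 FPKM against 4364, 3468 and 3495 FPKM and rose by 1.79 ± 0.14 (SE). Nlrc5, the transactivator of class I genes, measured 4.87, 5.48 and 5.60 FPKM against 0.294, 0.487 and 0.458 FPKM and rose by 2.16 ± 0.11 (SE). Psme1, a proteasome activator induced by interferon, rose by 1.27. The 3 members that did not pass, Pdia3, Canx and Calr, named after their values were seen, are general chaperones of the endoplasmic reticulum, at differences of 0.04, 0.07 and 0.19.

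Class II genes gave no such separation, though the median difference of their 8 tested members was 1.14. That median ran from 0.45 to 1.57 under the alternatives. Summed over the 9 listed genes, levels were 1206, 1870 and 4480 FPKM in PU.1 cKO and 276, 1400 and 960 FPKM in CK, with overlap between groups. Of 8 tested members, only H2-Oa passed (log2 difference 0.63 ± 0.17, SE, adjusted p = 0.0249), and its call was lost without PU.1 cKO replicate 1 or 3 or CK replicate 1 or 2, at adjusted p from 0.0613 to 0.0662. Cd74, the invariant chain, measured 691, 1117 and 2832 FPKM against 25.7, 567 and 319 FPKM (adjusted p = 0.0896). H2-Aa, a class II alpha chain, measured 102, 198 and 569 FPKM against 2.29, 166 and 100.7 FPKM (adjusted p = 0.221). CK replicate 1 stood low in both. The same library held the least of the border macrophage markers, 70.1, 397 and 455 FPKM in the 3 CK libraries against 222, 619.8 and 324 FPKM in PU.1 cKO, summed over the 11 listed genes. Their part in the class II values was not tested. Without CK replicate 1, 1 member was higher and 2 were lower, and without PU.1 cKO replicate 3 none was higher and 1 was lower, while under quantile normalization 1 was higher and 1 lower.

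Complement genes rose for the most part. Of 14 tested members, 10 rose, 2 fell, and the median was 0.95, or 0.37 under quantile normalization. C1qb, a chain of the initiating C1q complex, measured 10616, 8625 and 10149 FPKM against 4588, 4562 and 5020.5 FPKM and rose by 1.05 ± 0.12 (SE), a call lost when low genes were kept in the fit (adjusted p = 0.131). C3ar1, the receptor for the C3a fragment, measured 219, 203 and 211 FPKM against 129, 124 and 119 FPKM and rose by 0.76 ± 0.06 (SE). Itgb2, the beta chain of complement receptor 3, rose by 0.70, while Itgam, its alpha chain CD11b on which the cells were sorted, measured 408, 379.9 and 359 FPKM against 502, 514 and 473 FPKM and fell by 0.38. Only 1 member fell without any 1 of the 6 libraries.

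Chemokines rose without exception among those called. Of 16 tested members, 10 rose, none fell, all 10 by over 2-fold, and the median was 2.13. Ccl3, a chemokine made early by activated microglia, measured 518, 426 and 373 FPKM against 49.8, 72.1 and 57.3 FPKM and rose by 2.86 ± 0.17 (SE). Ccl6 measured 856, 765 and 723 FPKM against 244, 210.3 and 218 FPKM and rose by 1.80 ± 0.09 (SE). Cxcl16, a membrane-bound chemokine, measured 134, 117 and 144 FPKM against 35.4, 36.1 and 31.2 FPKM and rose by 1.91 ± 0.10 (SE). Every PU.1 cKO library was above every CK library in these. The NF-kB core GGGANTTCC, searched in the same promoter windows on both strands, stood in 3 of 11 chemokine promoters (27.3%), against 2.52% of tested genes and 1.69% of all promoters, and the interferon core stood in 4 of the 11 (36.4%).

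Inflammatory cytokines and NF-kB factors split. Of 17 tested members, 8 rose and 5 fell, and the median of 0.02 turned to -0.07 under quantile normalization, to -0.01 under median centring and to -0.04, -0.07 and -0.08 without PU.1 cKO replicate 3, PU.1 cKO replicate 1 and CK replicate 2. Il1rn, the interleukin-1 receptor antagonist, measured 12.8, 8.81 and 14.4 FPKM against 0.486, 0.875 and 0.748 FPKM and rose by 2.91 ± 0.19 (SE). Il6, an inflammatory cytokine, measured 0.526, 0.284 and 0.969 FPKM against 7.83, 7.04 and 8.73 FPKM and fell by 2.49. Il1a, another, fell by 1.14, from 66.6, 56.01 and 65.2 FPKM in CK to 28.02, 20.01 and 37.9 FPKM. Within the NF-kB family, Relb and Nfkb2, partners of the noncanonical pathway, rose by 1.20 and 1.18, and Nfkb1, a subunit of the canonical pathway, fell by 1.00. Nfkb1 measured 19.3, 17.3 and 18.5 FPKM against 37.6, 36.6 and 38.9 FPKM, while Nfkb2 measured 23.3, 20.4 and 19.02 FPKM against 8.08, 8.77 and 9.09 FPKM. Their libraries did not overlap in either direction.

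Pattern recognition receptors differed by member. Of 17 tested genes of the Toll-like list, 2 rose and 6 fell, with a median of -0.03, and only 3 fell without PU.1 cKO replicate 1 or 2 or any 1 CK library. The median was 0.02 without PU.1 cKO replicate 2. Tlr2, a receptor for bacterial lipoproteins, measured 469, 385 and 330.1 FPKM against 97.2, 82.7 and 84.6 FPKM and rose by 2.14 ± 0.14 (SE), and its partner Tlr1 rose by 0.93. Tlr4, the endotoxin receptor, measured 46.8, 47.3 and 49.7 FPKM against 77.7, 82.8 and 79.4 FPKM and fell by 0.73, and its co-receptor Ly96 fell by 0.47. Tlr5, the flagellin receptor, measured 0.673, 1.22 and 1.86 FPKM against 6.77, 9.36 and 9.03 FPKM and fell by 2.08. Of 20 Fc gamma and paired immune receptors, 7 rose and 3 fell, with a median of 0.47. The median was 0.27 without CK replicate 1, 0.73 without CK replicate 3 and 0.28 with a minimum of 5 FPKM, and under quantile normalization 6 rose and 5 fell. Cd300lf and Cd300lb, lipid-binding receptors of opposite signalling type, measured 23.2, 18.5 and 17.3 FPKM (Cd300lf) and 11.99, 11.00 and 11.9 FPKM (Cd300lb) in the PU.1 cKO libraries, against 0.555, 0.389 and 0.65 FPKM and 1.21, 1.23 and 1.04 FPKM in CK. Cd33, an inhibitory receptor for sialic acid, measured 94.4, 95.9 and 117 FPKM against 199.9, 208 and 197 FPKM and fell by 0.98, and Clec4a2, an inhibitory lectin, fell by 2.09.

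Lysosomal genes rose widely but not uniformly. Of 45 tested hydrolases and membrane proteins, 32 rose, 7 fell, and the median was 0.60, or 0.35 under quantile normalization. Ctsb, the protease cathepsin B, measured 3774, 3472 and 3696 FPKM in PU.1 cKO and 1056, 1015 and 996 FPKM in CK and rose by 1.83 ± 0.07 (SE). Cd63, a tetraspanin of late endosomes, measured 2437, 2113 and 2000.1 FPKM against 403, 386 and 382 FPKM and rose by 2.48 ± 0.09 (SE). Gaa, which degrades glycogen, measured 165, 159.8 and 173 FPKM against 70.5, 72.7 and 65.6 FPKM and rose by 1.24 ± 0.06 (SE). Ctse, an aspartic protease as cathepsin D is, measured 20.8, 20.5 and 14.8 FPKM against 0.794, 0.597 and 0.241 FPKM and rose by 3.67 ± 0.19 (SE).

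The lysosomal genes called lower were Arsb, Ctsf, Sgsh, Lgmn, Npc1, Ctso and Ctsd, whose listed zeros can be a failed estimate. With genes at both 0 and 100 FPKM or more left out, 6 fell. Sgsh, a sulfatase of heparan sulfate, measured 3.75, 3.87 and 2.98 FPKM against 7.91, 7.59 and 7.05 FPKM. Arsb, another sulfatase, measured 101.3, 95.7 and 106 FPKM against 492, 218 and 200.3 FPKM, with CK replicate 1 far above the other CK libraries. Npc1, which exports cholesterol from lysosomes, fell by 0.30, and its partner Npc2 rose by 1.44, at 361, 296 and 329 FPKM against 128, 114 and 119 FPKM. Npc2 was named after its value was seen. Lgmn, an asparagine protease, fell by 0.48, and the Lgmn call was lost when low genes were kept in the fit. The Ctso call was lost without CK replicate 2 (adjusted p = 0.0558).

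The vacuolar ATPase, the proton pump of lysosomes, had 17 tested genes. Of these, 11 rose and 1 fell, with a median of 0.43, while under quantile normalization 8 rose, 2 fell and the median was 0.22. Atp6v0d2, a subunit isoform of osteoclasts and macrophages, measured 3.57, 7.24 and 6.88 FPKM against 0.0201, 0.0865 and 0.134 FPKM and rose by 2.63 ± 0.24 (SE). Atp6v1a, the catalytic subunit, measured 60.7, 70.9 and 52.1 FPKM against 26.7, 24.9 and 24.8 FPKM and rose by 1.22 ± 0.12 (SE). The fall was of Atp6v0a2, a membrane subunit isoform of the Golgi and endosomes, at 33.7, 31.8 and 44.4 FPKM against 80.1, 79.1 and 72.2 FPKM.

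Of 22 tested genes of apolipoproteins and lipid handling, 17 rose and 1, Mylip, fell, with a median of 1.47. Lpl, lipoprotein lipase, measured 91.96, 136 and 109 FPKM against 6.85, 6.06 and 5.91 FPKM and rose by 3.95 ± 0.15 (SE). Apoc1, an apolipoprotein, measured 26.3, 34.3 and 27.1 FPKM against 0.607, 0.218 and 0.225 FPKM and rose by 4.49 ± 0.15 (SE). Fabp3, a fatty acid-binding protein best known from heart, measured 57.9, 55.5 and 44.9 FPKM against 0.317, 1.14 and 1.18 FPKM and rose by 4.87 ± 0.22 (SE). Mylip, the ligase that marks lipoprotein receptors for degradation, measured 68.5, 84.5 and 81.9 FPKM against 108, 102 and 99.9 FPKM. Of 19 tested genes of cholesterol synthesis, 9 rose and none fell, none by over 2-fold, with a median of 0.28. Pmvk and Fdft1, enzymes before and at the formation of squalene, rose by 0.75 and 0.60.

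Genes of glycolysis and of the respiratory chain rose in many members. Of 21 tested genes of glycolysis, 16 rose, none fell, and the median was 0.95, while 1 fell without PU.1 cKO replicate 3 and 1 under quantile normalization. Pkm, pyruvate kinase, measured 487, 509.5 and 406 FPKM in PU.1 cKO and 148, 147 and 142 FPKM in CK and rose by 1.67 ± 0.10 (SE). Tpi1, triosephosphate isomerase, measured 221, 234 and 191 FPKM against 63.2, 67.9 and 65.7 FPKM and rose by 1.70 ± 0.09 (SE). Hif1a, the oxygen-regulated factor that induces glycolysis, measured 269, 272 and 169 FPKM against 46.6, 48.3 and 39.9 FPKM and rose by 2.34 ± 0.20 (SE). The groups were apart in all 3, and PU.1 cKO replicate 3 was the lowest of its group.

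Of 57 tested nuclear genes of the respiratory chain, 46 rose, none fell, and the median was 0.57, while 1 fell under quantile normalization. All 11 genes of complex IV, cytochrome c oxidase, rose, with a median of 1.05. Of complex I, the NADH dehydrogenase, 18 of 24 rose with a median of 0.61, and of the ATP synthase 10 of 11 rose with a median of 0.52. Complex II had 4 of 4, and complex III with cytochrome c 3 of 7. Cox5b and Cox4i1, subunits of complex IV, measured 194, 185 and 184 FPKM (Cox5b) and 528, 462 and 474 FPKM (Cox4i1) in the PU.1 cKO libraries, against 82.99, 88.8 and 96.5 FPKM and 216, 210.5 and 236 FPKM in CK. They rose by 1.06 and 1.14.

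Cytosolic ribosomal proteins rose as nearly 1 block. Of 69 tested genes, 67 rose, none fell, 65 by over 2-fold, and the median was 1.35. The large subunit had 37 of 39 with a median of 1.27, and the small subunit with Fau had 30 of 30 with a median of 1.41. Rps6, a small subunit protein phosphorylated in growth signalling, measured 218, 182 and 209 FPKM against 81.9, 79.1 and 86.6 FPKM and rose by 1.29 ± 0.08 (SE). Rpl23, of the large subunit, measured 173, 143 and 172 FPKM against 49.2, 43.5 and 53.6 FPKM and rose by 1.72 ± 0.11 (SE). Every PU.1 cKO library exceeded every CK library. Ribosomal protein genes took 3.36% ± 0.294 of all FPKM in PU.1 cKO and 1.45% ± 0.0936 in CK (SD, n = 3). Many of these genes have processed pseudogenes with near-identical sequence, so their single values are uncertain where reads could be split. Between 65 and 67 of them rose under every alternative tried.

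Few genes of the constitutive proteasome passed. Of 31 tested genes, 5 rose, none fell, and the median was 0.09, but under quantile normalization 2 rose, 10 fell and the median was -0.10. The median was 0.03 without PU.1 cKO replicate 1, 0.05 without CK replicate 2 and 0.06 under median centring. Under median centring 4 fell, without PU.1 cKO replicate 1 2 fell, and without CK replicate 2 or 3 only 3 rose. Psmb6, a catalytic subunit, measured 178, 158 and 149.9 FPKM against 119, 96.1 and 109 FPKM and rose by 0.58 ± 0.10 (SE). The summed level of the list was 2803, 2420.0 and 2480.0 FPKM in PU.1 cKO and 2448, 2225 and 2373 FPKM in CK. The ranges overlapped, with PU.1 cKO replicate 2 under CK replicate 1. As a share of all FPKM the list was lower in PU.1 cKO, at 0.448% ± 0.017 against 0.48% ± 0.0104 in CK (SD, n = 3).

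**Figure D4:**
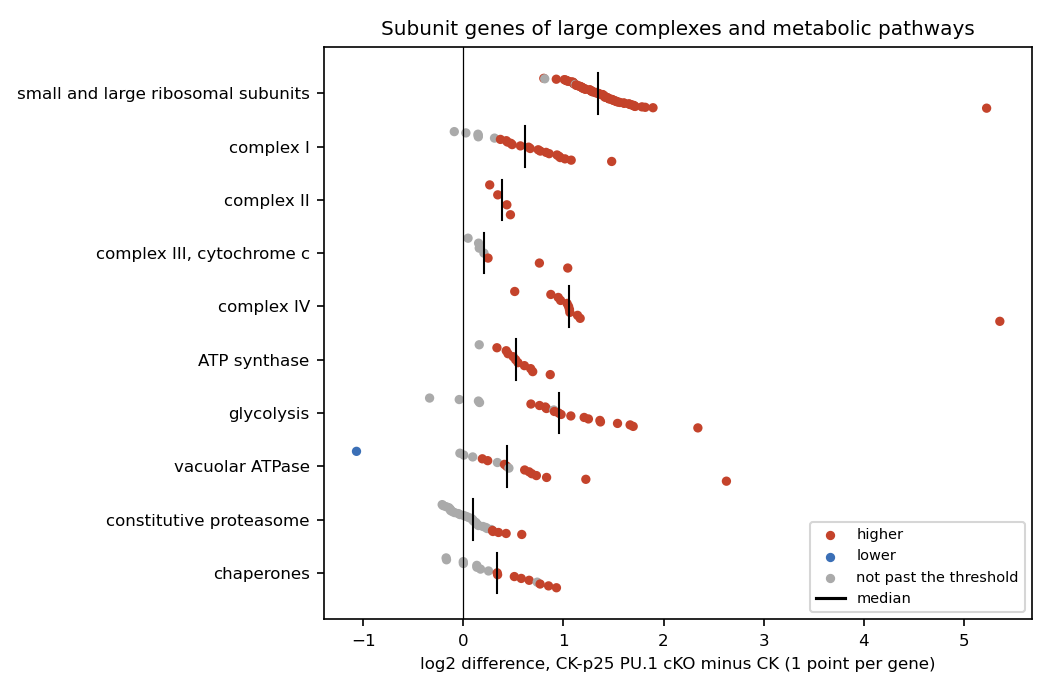
Each point is a gene, with its log2 difference, CK-p25 PU.1 cKO minus CK, on the x axis. Black bars are medians and red points passed the test. Ribosomal proteins (median 1.35) and complex IV (1.05) lie to the right of the constitutive proteasome (0.09), and Cox6a2 and Rps27 stand apart from their complexes.

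Chaperones and amino acid stress genes rose in part. Of 17 heat shock proteins and chaperones, 8 rose and none fell, with a median of 0.34, while 2 fell under quantile normalization. Hspa9, Hspd1 and Hspe1, chaperones of mitochondria, rose by 0.77, 0.66 and 0.93. Hspa9 measured 67.98, 68.2 and 65.3 FPKM against 39.6, 39.05 and 38.5 FPKM. Of 14 genes of the ATF4 response, 8 rose and none fell, with a median of 0.55, while 2 fell under quantile normalization and 1 under median centring. Asns, asparagine synthetase, measured 3.24, 3.35 and 3.53 FPKM against 0.294, 0.461 and 0.567 FPKM and rose by 1.61 ± 0.12 (SE), and Ddit3, which encodes CHOP, rose by 1.15. Atf4 itself measured 48.9, 46.97 and 52.02 FPKM against 53.5, 50.5 and 51.4 FPKM (adjusted p = 0.374).

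Most proliferation genes were low in both groups. Of 19 tested genes of mitosis and the spindle, 1 rose and 7 fell, with a median of -0.46, or -0.81 with a pseudocount of 0.1 FPKM, and 11 further listed genes did not reach the level for testing. Ube2c, a ubiquitin-conjugating enzyme of mitotic exit, measured 1.71, 1.66 and 1.44 FPKM against 6.72, 5.88 and 3.46 FPKM and fell by 1.25. Prc1, a spindle midzone protein, measured 1.68, 1.17 and 1.82 FPKM against 4.02, 3.58 and 2.93 FPKM and fell by 0.82. With a minimum of 5 FPKM, 2 members were tested, none of the 7 among them, and the median was 0.30. The rise was of Pttg1, securin, at 78.4, 65.4 and 73.1 FPKM against 33.8, 35.8 and 46.5 FPKM. Of 25 genes of DNA replication, 2 rose and 7 fell, among them Mcm2 and Mcm7, subunits of the replicative helicase, which fell by 0.48 and 0.48. Pcna, the sliding clamp, rose by 0.55. The other rise, of E2f1, was lost without PU.1 cKO replicate 1 or 2 or CK replicate 1 or 3, and only 4 replication genes fell without CK replicate 1.

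TGF-beta maintains microglial identity, and many genes of its pathway fell. Of 16 tested TGF-beta receptors and Smads, 2 rose and 10 fell, with a median of -0.38. Tgfbr1, the signalling receptor, measured 485, 443 and 458 FPKM in PU.1 cKO and 846, 837 and 724 FPKM in CK and fell by 0.79. Smad3, a transcription factor of the pathway, measured 17.5, 15.9 and 16.04 FPKM against 36.01, 28.9 and 29.1 FPKM and fell by 0.88. Tgfbr2, the ligand-binding receptor, went the other way, at 381, 367 and 341 FPKM against 253, 246 and 221 FPKM and a rise of 0.60 ± 0.08 (SE), a call lost under quantile normalization. The other rise, of Bmpr1a, was lost without PU.1 cKO replicate 1 or 2 or CK replicate 1 or 3, with adjusted p from 0.0584 to 0.0702.

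Of 14 purinergic and adenosine genes, 4 rose and 9 fell, with a median of -0.52. Besides P2ry12 and P2ry13, P2ry6, a receptor that triggers phagocytosis, measured 118, 93.6 and 126 FPKM against 232, 183 and 197 FPKM and fell by 0.86. Adora3, an adenosine receptor, fell by 0.95. P2rx4, an ATP-gated channel of activated microglia, measured 217, 178 and 169.7 FPKM against 45.8, 51.7 and 56.00 FPKM and rose by 1.85 ± 0.12 (SE). Adora1, another adenosine receptor, measured 6.89, 7.12 and 6.28 FPKM against 0.827, 1.10 and 0.711 FPKM and rose by 2.05 ± 0.11 (SE).

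Of 15 genes of the Notch pathway, 4 rose and 8 fell, with a median of -0.36. With a minimum of 5 FPKM, 11 were tested, 4 rose, 4 fell and the median was -0.08. Nrarp, a target and feedback inhibitor, measured 0.174, 0.317 and 0.381 FPKM against 8.98, 6.73 and 8.06 FPKM and fell by 2.79. Lfng, a modifier of Notch receptors, measured 10.7, 8.92 and 19.9 FPKM against 43.8, 39.2 and 36.5 FPKM and fell by 1.60. Psen2, a subunit of gamma-secretase, measured 27.1, 25.2 and 24.6 FPKM against 11.4, 12.97 and 11.9 FPKM and rose by 1.03 ± 0.07 (SE). Rbpj, the DNA-binding partner of Notch, rose by 0.59. Only 2 members of the list rose without any 1 library other than PU.1 cKO replicate 2.

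Transcription factors of myeloid cells moved both ways. Of 29 tested, 6 rose, 11 fell, and 12 did not pass, with a median of -0.02. Sall1, a factor that defines microglia, measured 44.3, 41.1 and 48.8 FPKM against 113, 100.9 and 98.2 FPKM and fell by 1.20. Maf, a macrophage factor, measured 9.16, 10.4 and 9.94 FPKM against 23.1, 24.2 and 31.5 FPKM and fell by 1.32. Bhlhe40, a factor of activated macrophages, measured 36.99, 34.2 and 27.9 FPKM against 0.444, 0.871 and 1.13 FPKM and rose by 4.24 ± 0.17 (SE). Mitf, which controls lysosomal genes, rose by 0.85. Irf8, a partner of PU.1 on DNA, measured 308, 277 and 270.3 FPKM against 241, 205 and 213 FPKM and rose by 0.38 ± 0.09 (SE). That direction reversed under quantile normalization, with a difference of -0.057 that did not pass, and the call was lost without CK replicate 2 or 3 (adjusted p = 0.0541 and 0.0555).

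Known targets of PU.1 moved both ways. Of 23 genes named in textbooks as its targets, 11 rose, 7 fell, and the median was 0.28, or 0.07 under quantile normalization. Only 4 fell without PU.1 cKO replicate 2 or 3 or CK replicate 2 or 3. Csf1r, the receptor that microglia need to survive, measured 2848, 2668 and 3346 FPKM against 4556, 4666 and 4349.7 FPKM and fell by 0.62. Csf2ra, a receptor chain for the growth factor GM-CSF, measured 92.2, 84.96 and 96.2 FPKM against 23.1, 22.8 and 23.2 FPKM and rose by 1.94 ± 0.06 (SE). Itgax, the integrin CD11c, measured 66.00, 58.4 and 151 FPKM against 3.61, 4.20 and 2.77 FPKM and rose by 4.23 ± 0.36 (SE). Ptprc, which encodes the CD45 used in the sort, measured 116, 111 and 124 FPKM against 66.7, 56.8 and 58.9 FPKM and rose by 0.94 ± 0.08 (SE). Of 8 genes of the phagocyte NADPH oxidase, 4 rose and 1, Ncf1, fell, a call lost without PU.1 cKO replicate 2 or 3 or CK replicate 2 or 3, and 2 fell under quantile normalization or median centring. Cybb, its catalytic subunit, measured 116, 124 and 116 FPKM against 2.72, 14.8 and 12.1 FPKM and rose by 3.71 ± 0.53 (SE), with CK replicate 1 the lowest.

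Mouse orthologs of genes near Alzheimer's risk loci divided almost evenly. Of 26 tested, 11 rose and 10 fell. The median of 0.14 became -0.05 without PU.1 cKO replicate 1 and -0.05 with a minimum of 5 FPKM, and it was 0.04 without PU.1 cKO replicate 2 and 0.01 under quantile normalization. Sorl1, a sorting receptor, measured 25.5, 24.2 and 34.1 FPKM against 9.20, 10.1 and 9.03 FPKM and rose by 1.46 ± 0.13 (SE). Treml2, a receptor related to Trem2, measured 8.44, 7.22 and 8.16 FPKM against 1.15, 1.74 and 1.58 FPKM and rose by 1.85 ± 0.12 (SE). Abi3, a regulator of actin, measured 60.7, 50.5 and 59.7 FPKM against 91.3, 91.6 and 99.4 FPKM and fell by 0.72. Picalm and Bin1, adaptors of endocytosis, fell by 0.73 and 0.56. Lists here share members: Spi1, Cd33, Apoe, Trem2, Csf1r and others count in more than 1.

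Growth factors and surface adhesion genes also changed. Of 14 growth factors and their receptors, 9 rose and 3 fell. Flt1, a receptor for vascular growth factors, measured 6.98, 6.61 and 4.86 FPKM against 0.258, 0.327 and 0.381 FPKM and rose by 2.42 ± 0.15 (SE), and Hbegf, an epidermal growth factor receptor ligand, measured 0.309, 0.67 and 0.569 FPKM against 2.06, 2.17 and 2.60 FPKM and fell by 1.12. Of 26 integrins, galectins and tetraspanins, 11 rose and 6 fell, and under quantile normalization 10 rose, 10 fell and the median of 0.22 turned to -0.14. With a minimum of 5 FPKM it was 0.11. Lgals3bp, a secreted galectin-binding glycoprotein, measured 2171, 1558 and 1819 FPKM against 135, 138 and 130.0 FPKM and rose by 3.76 ± 0.13 (SE). Itgal, the integrin CD11a, measured 8.49, 8.95 and 6.46 FPKM against 0.147, 0.584 and 0.717 FPKM and rose by 2.61 ± 0.19 (SE).

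Of 15 tested potassium and cation channels, 7 rose and 5 fell. Kcnd1, a voltage-gated potassium channel, measured 5.60, 4.30 and 11.6 FPKM against 32.4, 26.9 and 27.9 FPKM and fell by 1.98. Kcnj2, an inward rectifier of activated microglia, measured 58.2, 44.6 and 59.2 FPKM against 14.6, 12.7 and 10.1 FPKM and rose by 2.03 ± 0.16 (SE). Of 13 genes of iron handling, 6 rose and 5 fell. Slc40a1, the iron exporter ferroportin, measured 22.2, 35.9 and 61.8 FPKM against 176, 164 and 155 FPKM and fell by 2.13. Hmox1, which releases iron from heme, measured 83.02, 78.4 and 79.6 FPKM against 21.8, 30.8 and 26.2 FPKM and rose by 1.59 ± 0.12 (SE). Tfrc, the transferrin receptor, fell by 0.55.

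Of 16 proteases and protease inhibitors of the matrix, 11 rose and 1, Cst3, fell, with a median of 1.03. Timp2, an inhibitor of metalloproteinases, measured 776, 739.8 and 655 FPKM against 294, 274 and 265 FPKM and rose by 1.38 ± 0.09 (SE). Of 14 checkpoint and costimulation genes, 6 rose and 2 fell, and the median was 0.17. Under quantile normalization 6 fell and the median turned to -0.01, and with a minimum of 5 FPKM it was 0.02. It was 0.10 without PU.1 cKO replicate 1 or 3 and 0.28 without CK replicate 3, and reached 0.35 when PU.1 cKO replicate 2 was left out. Cd274, which encodes PD-L1, measured 35.2, 36.8 and 29.96 FPKM against 4.35, 4.07 and 3.73 FPKM and rose by 2.79 ± 0.10 (SE). Pdcd1, its receptor PD-1, measured 117, 98.1 and 95.6 FPKM against 17.2, 6.65 and 7.77 FPKM and rose by 3.29 ± 0.32 (SE). Vista, listed under an older symbol as 4632428N05Rik, measured 392, 366 and 356 FPKM against 654, 675 and 657 FPKM and fell by 0.83. Immediate early and dissociation genes had 5 rises and 2 falls among 20, and 3 rises without PU.1 cKO replicate 1 or CK replicate 2. Only 1 fell without PU.1 cKO replicate 1 or 2 or CK replicate 1 or 3. Atf3, a stress-induced factor, rose by 1.82, while Fos and Egr1 did not pass, at 0.41 and 0.12. Fos and Egr1 were named after their values were seen.

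**Figure D5:**
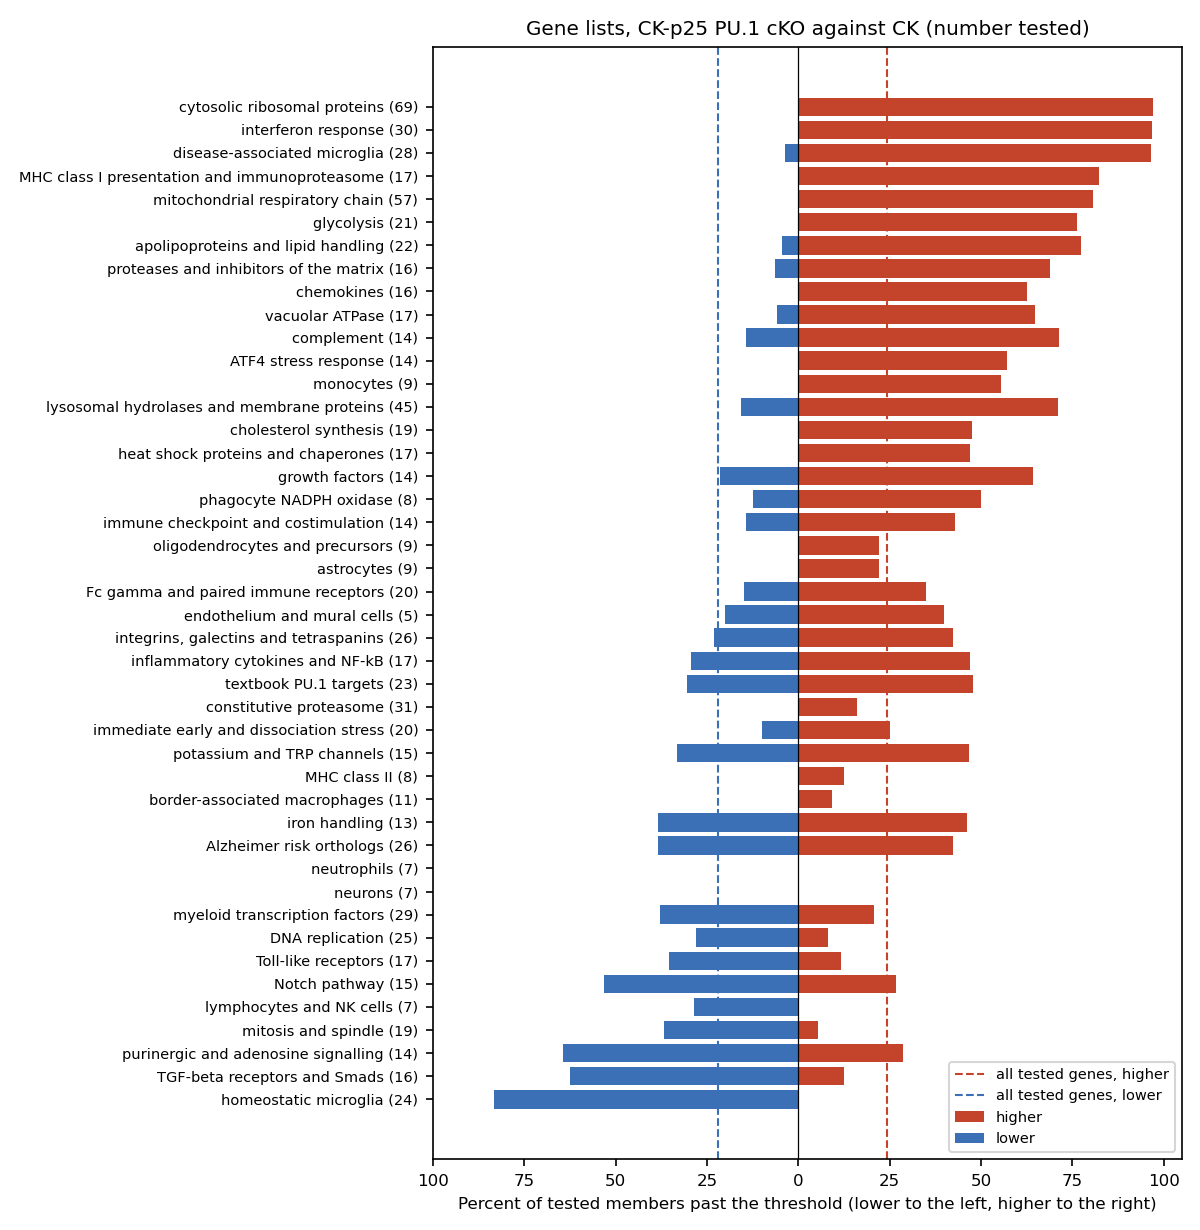
Bars give the percent of tested members of each list past an adjusted p of 0.05, with the number tested in brackets. Members higher in CK-p25 PU.1 cKO than in CK are to the right and lower members to the left. Dashed lines mark the same percents over all tested genes, 24.2% higher and 22.1% lower; ribosomal, interferon and disease-associated genes reach farthest right and homeostatic genes farthest left.

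Transcripts of other cells were present at low levels, and some markers were called. Of all tested genes, 24.2% were called higher and 22.1% lower. Astrocyte and oligodendrocyte markers, each with 22.2% called higher, and border macrophage markers, with 9.09%, did not exceed that share. Endothelial markers stood at 40.0% and monocyte markers at 55.6%. Of 7 tested neuronal markers and 7 of neutrophils, none passed, and 1 neuronal marker rose without PU.1 cKO replicate 1 and 1 neutrophil marker fell under quantile normalization. Sums here are over all listed markers, of which 1 neutrophil gene was at 0 in all 6 libraries. Summed neuronal markers were 4.62, 29.3 and 66.9 FPKM in PU.1 cKO and 7.69, 24.4 and 17.02 FPKM in CK, and summed neutrophil markers were 30.5, 174 and 51.9 FPKM and 2.68, 126 and 81.2 FPKM. Summed over 11 astrocyte markers, levels ran from 104 to 280 FPKM in PU.1 cKO and from 60.8 to 94.8 FPKM in CK, and 2 of the 9 tested rose. Gfap, the filament of reactive astrocytes, measured 22.4, 109 and 102 FPKM against 1.36, 4.13 and 2.72 FPKM. Without PU.1 cKO replicate 1, 7 of the 9 astrocyte markers rose. Of 9 oligodendrocyte and precursor markers, 2 rose, Cspg4 and Cnp, with Cspg4 at 34.2, 31.3 and 2.33 FPKM against 0.229, 0.076 and 0.0655 FPKM, and both calls were lost without PU.1 cKO replicate 2 (adjusted p = 0.0522 and 0.0822). Among the fits with 1 library left out, the Cnp call was kept only without PU.1 cKO replicate 1, where 4 of the 9 rose. It was also lost with no filter on low values, under quantile normalization or median centring, and with all 9 libraries.

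Monocyte markers were higher, with 5 of 9 called and summed levels of 89.1 to 114 FPKM against 8.68 to 25.6 FPKM. The rises were of Ly6i, Ms4a4c, Fn1, S100a4 and Itga4. Ly6i, a Ly6 family gene of myeloid cells, measured 21.5, 14.4 and 18.9 FPKM against 0.0684, 0.369 and 0.305 FPKM. Ccr2, the receptor that defines monocytes recruited from blood, did not pass, at 2.40, 6.09 and 4.31 FPKM against 2.71, 7.50 and 4.69 FPKM. Of 7 lymphocyte and NK cell markers, 2 fell and none rose. Il7r, the interleukin-7 receptor, measured 0.241, 0.935 and 1.53 FPKM against 25.5, 15.2 and 18.6 FPKM, and Cd79b, of the B cell receptor, measured 3.12, 3.89 and 21.8 FPKM against 31.9, 26.2 and 28.6 FPKM, a call lost without any 1 library other than PU.1 cKO replicate 3, with adjusted p from 0.0993 to 0.134. Without PU.1 cKO replicate 1, 4 lymphocyte markers rose. Of 5 endothelial markers, Flt1 and Kdr rose, the Kdr call being lost without any 1 CK library (adjusted p from 0.0527 to 0.0591), and 4 rose without PU.1 cKO replicate 1. The fall was of Pecam1, an adhesion molecule that myeloid cells also carry, at 0.492, 1.18 and 1.80 FPKM against 14.9, 13.6 and 11.00 FPKM. Of 11 border macrophage markers, Siglec1, also an interferon-induced gene, rose by 2.05 and the rest did not pass, while 1 fell without PU.1 cKO replicate 2 or CK replicate 1. The part of other cells in the results above was not tested.

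For orientation, CK-p25 libraries with intact PU.1 are set beside these values, since PU.1 cKO was also compared with them. In a fit of 9 libraries, 0 of 10894 genes (0%) passed between PU.1 cKO and CK-p25, with 671 genes at an unadjusted p under 0.05, where 545 fall by chance, and a smallest adjusted p of 0.0765. Leaving out 1 library at a time gave 0 to 25 genes, the most without PU.1 cKO replicate 3. CK-p25 replicate 3 came from another sequencing run and had 42.1% of genes at 0. Summed interferon genes measured 2726, 2531 and 3336 FPKM in CK-p25, against 3256, 2558 and 3055 FPKM in PU.1 cKO. Homeostatic genes summed to 26390, 23500 and 26580 FPKM against 23950, 21750 and 23810 FPKM. Ribosomal protein genes summed to 20370, 17900 and 10340 FPKM against 20870, 16530 and 20530 FPKM. A p that misses the threshold does not show that the groups act alike.

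Spi1 measured 251, 208 and 298 FPKM in CK-p25, above all 3 PU.1 cKO libraries in replicates 1 and 3, with a log2 difference of PU.1 cKO minus CK-p25 of -0.49 (adjusted p = 0.745). Gpnmb measured 87.3, 127 and 71.8 FPKM and C3 41.6, 36.5 and 31.3 FPKM in CK-p25. Replicates 1 and 2 of PU.1 cKO were above all of these, and replicate 3 was within or close to their range. Ecscr measured 27.8, 25.7 and 38.5 FPKM and Siglece 15.2, 13.9 and 15.8 FPKM in CK-p25, where PU.1 cKO replicates 1 and 2 were below. Gpnmb, C3, Ecscr and Siglece were picked for this comparison with their values known. None of them passed between PU.1 cKO and CK-p25, with an adjusted p of 0.745 for each. Ccl5 measured 187, 165 and 279 FPKM, P2ry12 983, 717 and 999 FPKM and Spp1 1587, 2060.1 and 2229 FPKM in CK-p25. The ranges of Ccl5, P2ry12 and Spp1 overlapped those of PU.1 cKO.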

How the data were processed

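The deposited table holds FPKM per gene, made by the authors from full-length cDNA libraries. TopHat, Bowtie and Cufflinks 2.0.0 and the mouse build mm9 are named in the submitters' processing notes, and how each was set is not given in the sources used here. The kits do not mark strand, so overlapping and antisense genes cannot be told apart. FPKM keeps no read counts, so depth is unknown and no count test or counting interval was used.

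Columns were tied to samples by their names, and groups were taken from the labels. Values were taken as log2(FPKM + 1), and genes whose mean over the 6 libraries reached 1 FPKM were fitted with limma 3.58.1 in R 4.3.3, with a mean-variance trend, moderated tests and Benjamini-Hochberg adjustment over all 10822 genes at 0.05. The fit held only the 6 libraries compared, because 1 CK-p25 library came from another run. The comparison with CK-p25 used 9 libraries and 10894 genes. The scripts were tested on simulated data.

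Named genes were Spi1, the 14 largest called rises and falls on the log2 scale whose groups did not overlap and whose higher group had no 0, and the 6 largest called shifts in FPKM each way, leaving out microRNA, snoRNA, Gm, Rik and LOC gene models. Of each list they were up to 4 called members with the smallest p in each direction, members with values both at 0 and at 100 FPKM or more, members called against the list's main direction and, of promoters with the motif, those that changed most. Other members are said to have been named after their values were seen, and the same holds for members that did not pass. A few genes that the rule or the lists hold are not reported here. The members and all 44 lists, 36 of functions and 8 of other cells, were chosen with earlier results of these data known. Promoters came from RefSeq (GRCm38.p6), a build other than that of the values, and were matched by symbol. Of 23951 symbols, 23836 matched a current or older gene name. Alternatives were a pseudocount of 0.1, no filter on low values, a minimum of 5 FPKM, quantile normalization, median centring, other sets of libraries, no mean-variance trend, leaving out genes with values both at 0 and at 100 FPKM or more, a replicate block and leaving out each library.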

Additional observations from a re-analysis of the deposited data

How the results depend on the processing

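The count of higher genes stayed within 1.5 times of 2619 under every alternative, between 1937 and 2670, and that of lower genes did so except with all 9 libraries in the fit, where 1447 were lower. Quantile normalization gave 2250 higher and 3031 lower (42.6% of calls higher against 52.2%), and median centring gave 2516 and 2728. Leaving out 1 library gave 2128 to 2469 higher and 1797 to 2117 lower. The Spi1 difference of -0.46 kept its direction throughout, and it no longer passed, at -0.46, when low genes were kept (adjusted p = 0.0761), with all 9 libraries (0.0751) and without the mean-variance trend (0.0533), while leaving out 1 library gave -0.63 to -0.35. Between PU.1 cKO and CK-p25, 2 genes passed with no filter, 1 under quantile normalization, 2 with only the 6 libraries compared, and 0 to 25 when 1 library was left out. Irf8 reversed under quantile normalization, from 0.38 to -0.057 (adjusted p = 0.495). Of 244 named calls, 36 were lost with all 9 libraries, 11 with no filter, 9 under quantile normalization and 11 to 21 when 1 library was left out. The cause was not tested. The labels do not say whether replicate numbers pair the samples. Deviations of same-numbered libraries correlated at 0.132, 0.00356 and -0.0137, and those of differently numbered libraries at -0.0851 to 0.085. Such values cannot settle whether samples were paired. A replicate block gave 2499 higher and 2189 lower, Spi1 at -0.46 (adjusted p = 0.0381) and 0 genes against CK-p25. The 3 libraries of each group and an unknown depth limit what low genes can show.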
